A study of Saccharomyces cerevisiae with 6 samples.

Results

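The genes described here code for the nuclear RNA polymerases of budding yeast and for the factors that start transcription by polymerases I and III. They were taken as the 46 genes whose symbol in the probe annotation matched a fixed list of 31 polymerase subunits and 15 factors, out of 5560 named genes on the arrays, and each had 1 probe. By role they comprised 7 subunits of polymerase I alone, 2 shared by polymerases I and III, 5 shared by all 3 enzymes, 10 of polymerase III alone and 7 of polymerase II alone. The factors comprised 6 for polymerase I (RRN genes), 8 of the polymerase III factors TFIIIC and TFIIIB, and the polymerase III repressor MAF1.

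Wild-type Saccharomyces cerevisiae of the S288c strain was grown in each medium, and poly(A) RNA of a pair of samples was compared on each of 6 arrays. A group of 2 arrays set cells with rapamycin against cells without it in MDN medium, and another 2 did so in YPD, a rich medium. A further array compared drug-free cells in MDN with drug-free cells in YPD, and the last compared MDN with SCD, also without drug. The design asks what rapamycin, an inhibitor of the growth-controlling TOR kinase, does to transcripts in MDN, and how this compares with YPD. MDN and SCD are abbreviations of the labels, and the sources used here state no rapamycin dose or exposure time.

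Polymerase I makes the large ribosomal RNA precursor, polymerase III makes transfer RNAs and 5S ribosomal RNA, and polymerase II makes messenger RNAs, including those of all the subunits measured here. The enzymes share a common core of small subunits and have related subunits at corresponding places, so each can be read against the others. TOR signalling is known to hold the activity of polymerases I and III in step with nutrient supply, through the polymerase I factor Rrn3 and the polymerase III repressor Maf1, proteins that are controlled largely by phosphorylation. The arrays measured messenger RNA of these genes, not polymerase activity, and rRNA and tRNA are not part of the readout.

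All values are log2 ratios, so that -1 means a transcript at 1 part in 2 of its level in the comparison sample. A positive value is taken to mean more transcript with rapamycin, or in MDN, because the labels give Cy5 to those samples. That reading is likely but is not stated with the values, and with the inverse ratio every direction below would turn. With no dye swap, a dye effect of a single probe remains in its value, and it cancels only in differences between arrays. Between 5834 and 6121 of 6210 probes had a value on each array, array medians lay between -0.09 and 0.07, and the correlation across genes was 0.966 between the MDN rapamycin arrays and 0.95 between the YPD ones. No label says that replicate arrays hold separate cultures, so the p-values reflect the spread of these arrays alone, possibly a technical one, and precision is limited by their small number. The median SD between replicate arrays was 0.12 for the polymerase genes and 0.13 for all genes tested. The treatment was checked on genes known from earlier results of these data, so they give no independent support. The ribosomal protein genes RPL9A and RPS3 fell to -5.64 and -4.85 in MDN and to -4.64 and -4.98 in YPD. DAL5, an allantoate permease gene, rose to 3.58 in MDN and 4.65 in YPD, while GAP1, the general amino acid permease gene, was at -0.91 in MDN and 6.18 in YPD and MEP2, an ammonium permease gene, at 0.22 and 5.38.

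With rapamycin, transcripts of polymerase I subunits were the lowest of the 3 enzymes in both media, those of polymerase II and III subunits had similar medians in MDN, and genes of TFIIIC and TFIIIB were mostly above 0 in MDN and on both sides of 0 in YPD. A gene was called where limma, fitted to the 5488 features (genes or unnamed probes) measured on each of the 4 rapamycin arrays, gave a Benjamini-Hochberg adjusted p under 0.05. Of the 46 genes 41 could be tested, and the other 5 (RPB5, RPC34, RPB4, RRN7 and TFC7) lacked a value on 1 or 2 of the arrays. In MDN, 23 of the 41 fell, against 23.3% of all genes tested, and 6 rose, against 30.8% (54.1% in either direction). In YPD, 27 fell, against 32.0% of all genes, and 5 rose, against 34.3% (66.3% in either direction). The 22 genes that fell in both media compare with 17.9% of all genes, and none moved in opposite directions, as 3.12% of all genes did. Of the 28 tested subunits, 11 fell at least 2-fold in MDN (8.58% of all genes did) and 18 in YPD (11.5%), and none of the 13 tested factors did so in MDN and 2 did in YPD. The median of the 41 genes was -0.61 in MDN and -0.88 in YPD, beside 0.06 and 0.01 for all genes tested.

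The counts in MDN, and those of genes that rose in YPD, depend on having both arrays of the medium. With either MDN array left out, most MDN calls were lost, among these genes as among all genes tested. Such a fit takes the spread of MDN from the 2 YPD arrays. No called MDN response changed sign. RPA135, RPA49, RPA43, RPA12 and RPB8 kept their MDN call with any 1 array left out. In YPD most genes that fell kept their call with any 1 of the 4 arrays left out, and of those that rose only TFC3 did. Calls among all genes tested became fewer in these fits too.

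**Figure D1:**
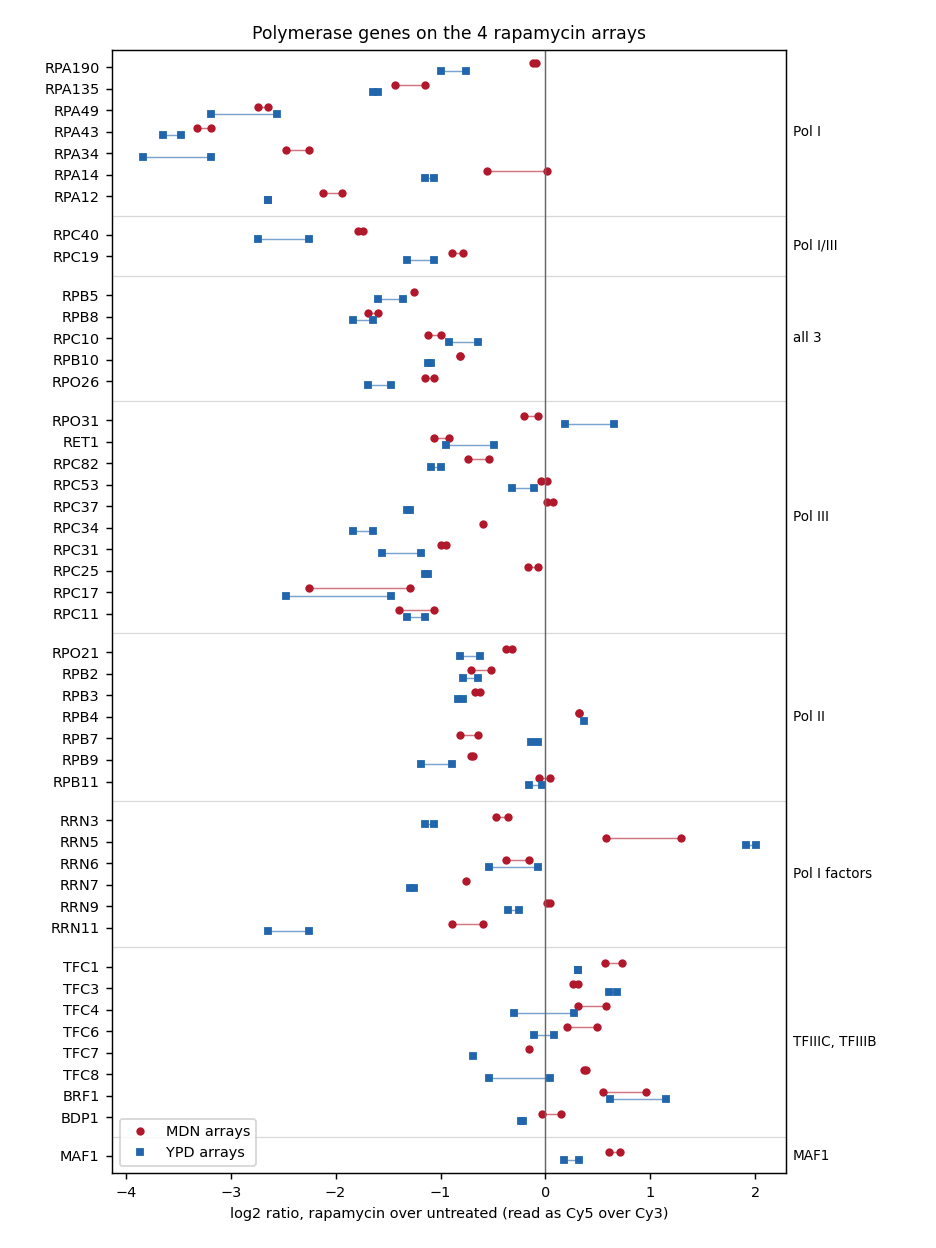
Log2 ratio of rapamycin-treated over untreated cells for each of the 46 genes on the MDN arrays (circles) and the YPD arrays (squares), with a line joining the 2 arrays of a medium and genes grouped by role. RPA43, RPA49 and RPA34 lie farthest to the left, between -2.25 and -3.84, and RRN5 farthest to the right, at up to 2.00.

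Polymerase I carried the largest decreases. In MDN 5 of its 7 own subunits fell, with a median of -2.03, and in YPD all 7 fell, with a median of -2.64. RPA43, a stalk subunit that contacts the initiation factor Rrn3, was at -3.32 and -3.18 on the MDN arrays and at -3.64 and -3.47 on the YPD arrays. Its mean of -3.25 ± 0.09 in MDN (SE, n = 2, limma adjusted p = 3.76e-05) was a 9.53-fold decrease, and its mean in YPD, -3.56 ± 0.09 (adjusted p = 2.85e-05), an 11.8-fold decrease. Among all genes tested, 2.37% had a lower mean in MDN and 1.55% in YPD. RPA43 thus stood near the lower end of the whole array in both media, and its medium difference was within the fit's error (0.31, 95% interval -0.02 to 0.63, adjusted p = 0.131).

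RPA49 and RPA34 form a pair of subunits that resembles the polymerase II factor TFIIF and helps elongation. RPA49 had -2.64 and -2.74 on the MDN arrays and -3.18 and -2.56 on the YPD arrays (means -2.69 ± 0.16, adjusted p = 0.000287, and -2.87 ± 0.16, adjusted p = 0.000137). RPA34 had -2.47 and -2.25 in MDN and -3.18 and -3.84 in YPD, with means of -2.36 ± 0.17 (adjusted p = 0.000525) and -3.51 ± 0.17 (adjusted p = 9.86e-05). The media overlapped for RPA49 and were apart for RPA34. RPA12, which carries the RNA cleavage activity of polymerase I, was at -1.94 and -2.12 in MDN and at -2.64 on both YPD arrays, so its decrease was 4.09-fold in MDN and 6.25-fold in YPD.

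The catalytic subunits moved less. RPA135, the second-largest subunit, was at -1.43 and -1.15 in MDN and at -1.60 and -1.64 in YPD, with means of -1.29 ± 0.10 (adjusted p = 0.000598) and -1.62 ± 0.10 (adjusted p = 0.000173). RPA190, the largest subunit, was at -0.09 and -0.12 in MDN, where it was not called (mean -0.10 ± 0.09, adjusted p = 0.382), and at -1.0 and -0.76 in YPD, where it fell (mean -0.88 ± 0.09, adjusted p = 0.000974). RPA14, the small partner of RPA43 in the stalk, was at 0.01 and -0.56 in MDN (adjusted p = 0.184) and at -1.15 and -1.06 in YPD (mean -1.11 ± 0.15, adjusted p = 0.00229). The YPD call of RPA14 was lost in 2 of the 4 fits that left out 1 array. Subunits of 1 enzyme therefore differed widely in MDN, from -0.10 for RPA190 to -3.25 for RPA43.

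RPA190 and RPA43 are next to each other on chromosome XV in the RefSeq gene table (assembly R64) and, by their systematic names YOR341W and YOR340C, read away from each other. RPA43 minus RPA190 was -3.23 and -3.06 on the MDN arrays and -2.64 and -2.71 on the YPD arrays. The gene on the other side of RPA190, YOR342C, was at -1.62 ± 0.12 in MDN (adjusted p = 0.000508) and -2.37 ± 0.12 in YPD (adjusted p = 9.97e-05). RPA190 thus had the smallest response of the 3 adjacent genes in each medium.

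The subunits that polymerase I shares with the other enzymes fell throughout. RPC40 and RPC19 form the platform on which polymerases I and III are assembled. RPC40 was at -1.74 and -1.79 in MDN and at -2.74 and -2.25 in YPD (means -1.76 ± 0.13, adjusted p = 0.000573, and -2.49 ± 0.13, adjusted p = 0.000119). RPC19 was at -0.79 and -0.89 in MDN and at -1.06 and -1.32 in YPD, with means of -0.84 ± 0.10 (adjusted p = 0.00224) and -1.19 ± 0.10 (adjusted p = 0.000444). RPC40 was thus lower than its partner on all 4 arrays.

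Of the 5 subunits common to all 3 enzymes, the 4 tested fell in both media. RPB8 was at -1.60 and -1.69 in MDN and at -1.84 and -1.64 in YPD, which made it the lowest of them in each medium (means -1.64 ± 0.09, adjusted p = 0.00023, and -1.74 ± 0.09, adjusted p = 0.000109). RPO26, the subunit also known as Rpb6, was at -1.15 and -1.06 in MDN and at -1.47 and -1.69 in YPD. RPC10, a small zinc-binding subunit also known as Rpb12, was at -1.12 and -1.0 in MDN and at -0.92 and -0.64 in YPD, so that it alone among these 4 had the lower values in MDN, although the medium difference was not called (-0.28, 95% interval -0.65 to 0.09, adjusted p = 0.195). RPB10, another small zinc-binding subunit, was at -0.81 on both MDN arrays and at -1.12 and -1.09 in YPD. RPB5, which binds downstream DNA, had 1 value in MDN, at -1.25, and -1.36 and -1.60 in YPD; in the fit that admits genes with at least 1 array per medium it was called lower in both (adjusted p = 0.0068 and 0.0013).

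The own subunits of polymerase III ranged from -1.77 to 0.04 in MDN and from -1.97 to 0.42 in YPD. Of the 9 tested own subunits 5 fell in MDN and none rose, with a median of -0.64, and 7 fell and 1 rose in YPD, with a median of -1.14. RPC17, a stalk subunit, had the lowest means, -1.77 ± 0.32 in MDN and -1.97 ± 0.32 in YPD. Its arrays were far apart, at -2.25 and -1.29 in MDN and at -1.47 and -2.47 in YPD, and the MDN call (adjusted p = 0.00831) was lost with any 1 of the 4 arrays left out. RPC11, the RNA cleavage subunit, was at -1.40 and -1.06 in MDN and at -1.15 and -1.32 in YPD, a 2.34-fold and a 2.36-fold decrease.

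RPC82, RPC34 and RPC31 form the trimer through which polymerase III meets its initiation factors. RPC31 was at -0.94 and -1.0 in MDN and at -1.56 and -1.18 in YPD, and RPC82 at -0.74 and -0.54 in MDN and at -1.09 and -1.0 in YPD, and both were called in each medium. RPC34 had -0.60 on its 1 MDN array and -1.64 and -1.84 in YPD, and the fit admitting 1 array per medium called it lower in both media (adjusted p = 0.0333 and 0.000761). All 3 genes had lower values in YPD than in MDN on every array measured.

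RPC53 and RPC37 form the pair that acts in termination and reinitiation. RPC53 was at -0.04 and 0.01 in MDN and at -0.32 and -0.10 in YPD, and was called in neither. RPC37 was at 0.07 and 0.01 in MDN (adjusted p = 0.669) and at -1.32 and -1.29 in YPD, a mean of -1.30 ± 0.08 (adjusted p = 0.000157). RPC25, the stalk partner of RPC17, was similar, at -0.17 and -0.07 in MDN (adjusted p = 0.247) and at -1.12 and -1.15 in YPD (mean -1.14 ± 0.08, adjusted p = 0.00026).

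The 2 large subunits of polymerase III went apart. RET1, the second-largest subunit, was at -1.06 and -0.92 in MDN and at -0.49 and -0.94 in YPD, and fell in both media (adjusted p = 0.00311 and 0.00614). RPO31, the largest subunit, was at -0.20 and -0.07 in MDN, where it was not called, and at 0.65 and 0.19 in YPD, where it was the only tested subunit of any enzyme to rise (mean 0.42 ± 0.13, adjusted p = 0.038). That call was lost in 3 of the 4 fits that left out 1 array and with the replicate block (adjusted p = 0.0531).

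The own subunits of polymerase II had a median close to that of polymerase III in MDN. Of the 6 tested, 5 fell in MDN and 4 in YPD, with medians of -0.63 and -0.72. RPO21, the largest subunit, was at -0.38 and -0.32 in MDN and at -0.81 and -0.62 in YPD (means -0.35 ± 0.09, adjusted p = 0.0234, and -0.72 ± 0.09, adjusted p = 0.00162). RPB2, the second-largest, was at -0.51 and -0.71 in MDN and at -0.79 and -0.64 in YPD, and RPB3, an assembly subunit, at -0.62 and -0.67 in MDN and at -0.79 and -0.84 in YPD. These 3 genes lay within a narrow band, between 1.27-fold and 1.75-fold lower.

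RPB9, which acts in start site choice and fidelity, had the lowest mean of the group in YPD, at -1.04 ± 0.10 (arrays -1.18 and -0.89, adjusted p = 0.000736), and was at -0.69 and -0.71 in MDN. RPB7, of the stalk, was at -0.81 and -0.64 in MDN (mean -0.73 ± 0.09, adjusted p = 0.00224) and at -0.07 and -0.14 in YPD (adjusted p = 0.323). RPB4, its partner, was at 0.32 on both MDN arrays and at 0.37 on its 1 YPD array, and the fit admitting 1 array per medium called it higher in MDN (adjusted p = 0.0444) and not in YPD (0.0611). RPB11, the partner of RPB3, was at -0.06 and 0.04 in MDN and -0.15 and -0.03 in YPD. In both pairs the partners differed, with RPB7 and RPB3 below RPB4 and RPB11 on every array measured.

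Corresponding subunits of the enzymes were set side by side at 7 places, as differences of log2 ratios between probes of the same array. The polymerase I member was below the polymerase II member on every rapamycin array measured at 6 of the 7, with differences from -0.31 to -3.57. The exception was the largest subunit, where RPA190 minus RPO21 was 0.29 and 0.20 in MDN and -0.19 and -0.14 in YPD. The widest gap was in the larger stalk subunit, where RPA43 minus RPB7 was -2.51 and -2.54 in MDN and -3.57 and -3.34 in YPD.

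Polymerase III had its own subunit at 5 of these places, and of these only RPC17 was below its polymerase II counterpart, RPB4, on every array measured (3, since RPB4 lacks a value on 1). At the other places it has RPC40 and RPC19, which it shares with polymerase I. These were below RPB3 and RPB11 on all 4 rapamycin arrays, and they are part of the polymerase I count above. In the stalk the order of the enzymes turned between the subunits: RPA43 minus RPC25 lay between -3.15 and -2.32, whereas RPA14 minus RPC17 lay between 0.32 and 2.27. At the zinc-ribbon subunit, RPA12 was below RPC11 on all 4 arrays, and RPC11 minus RPB9 was -0.71 and -0.35 in MDN and 0.03 and -0.43 in YPD. By medians over the own subunits, polymerase I minus polymerase II was -1.43 and -1.48 on the MDN arrays and -1.86 and -1.92 on the YPD arrays. For polymerase III minus polymerase II the same difference was -0.15 and 0.11 in MDN and -0.35 and -0.54 in YPD. These differences between genes are given as descriptions and were not tested.

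**Figure D2:**
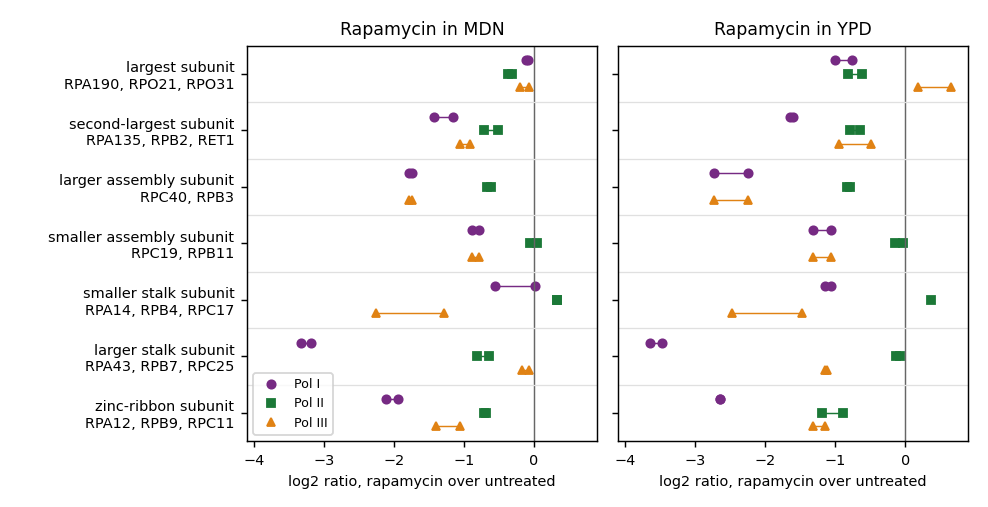
Log2 ratio of rapamycin-treated over untreated cells in MDN (left) and YPD (right) for the subunits at 7 corresponding places of polymerases I (circles), II (squares) and III (triangles), with 1 point per array and a line between the arrays of a medium. RPC40 and RPC19 appear for both polymerase I and III, which share them; the RPA43 points lie between -3.18 and -3.64, far left of RPB7 and RPC25.

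Initiation factors of polymerase I split into genes that fell, genes not called, and RRN5. RRN3, which brings polymerase I to its promoter, was at -0.36 and -0.47 in MDN and at -1.06 and -1.15 in YPD (means -0.42 ± 0.08, adjusted p = 0.0112, and -1.11 ± 0.08, adjusted p = 0.000326). RRN11, of the core factor that binds the rDNA promoter with RRN6 and RRN7, was at -0.89 and -0.60 in MDN and at -2.64 and -2.25 in YPD, a 1.68-fold decrease in MDN (adjusted p = 0.008) and a 5.46-fold decrease in YPD (adjusted p = 0.000124). The other core factor genes did not move alike. RRN7 had -0.76 on its 1 MDN array and -1.29 and -1.25 in YPD, and the fit admitting 1 array per medium called it lower in both (adjusted p = 0.0129 and 0.00109). RRN6 was at -0.38 and -0.15 in MDN and at -0.07 and -0.54 in YPD and was called in neither.

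RRN9 and RRN5 belong to the upstream activation factor. RRN9 was at 0.01 and 0.04 in MDN and at -0.25 and -0.36 in YPD, where it fell (mean -0.30 ± 0.08, adjusted p = 0.0218), a call lost in 3 of the 4 fits without 1 array. RRN5 was at 0.58 and 1.29 in MDN and at 1.91 and 2.00 in YPD, with means of 0.93 ± 0.18 (adjusted p = 0.00987) and 1.96 ± 0.18 (adjusted p = 0.000602), the highest of the 41 tested genes in each medium. The MDN call was lost in 3 of the 4 fits without 1 array and the YPD call in 2. The next gene along chromosome XII, PUT1, which codes for proline oxidase and reads in the same direction as RRN5 by its systematic name, was at 1.47 and 1.27 in MDN and at 2.50 and 3.0 in YPD. On the medium arrays PUT1 was at 3.30 in MDN over YPD and 3.42 in MDN over SCD, beside 3.08 and 2.78 for RRN5. The RRN5 and PUT1 probes were high on the same arrays, and the part of the neighbouring transcript in the RRN5 value was not tested.

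The polymerase III initiation factors differ from the polymerase in role: TFIIIC recognises the promoters inside tRNA genes and TFIIIB recruits the polymerase. Of the 7 tested genes 4 rose in MDN and 3 in YPD, and none fell in either, with medians of 0.38 in MDN and -0.01 in YPD. Shares of 30.8% and 34.3% of all genes rose in these media, so the count in YPD is close to the background. BRF1, the TFIIIB subunit related to TFIIB, was at 0.55 and 0.96 in MDN and at 0.61 and 1.15 in YPD (means 0.75 ± 0.17, adjusted p = 0.0166, and 0.88 ± 0.17, adjusted p = 0.00754); its MDN call was lost with any 1 of the 4 arrays left out.

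TFC1, of the TFIIIC module that binds the A box, was at 0.73 and 0.57 in MDN and at 0.31 on both YPD arrays. TFC3, of the module that binds the B box, was at 0.26 and 0.31 in MDN and at 0.69 and 0.60 in YPD. Both rose in each medium, with TFC1 higher in MDN and TFC3 higher in YPD; the YPD call of TFC1 was lost with any 1 array left out, and neither medium difference was called (adjusted p = 0.0902 and 0.0679). TFC6 rose in MDN (mean 0.35 ± 0.11, adjusted p = 0.0454), at 0.50 and 0.20, a call lost with any 1 array left out, and lay at -0.10 and 0.08 in YPD.

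The other 3 tested genes of this group were not called. TFC4, which links TFIIIC to TFIIIB, was at 0.58 and 0.31 in MDN and at -0.30 and 0.28 in YPD. TFC8 was at 0.39 and 0.37 in MDN and at -0.54 and 0.04 in YPD, and BDP1, the third component of TFIIIB, at -0.03 and 0.15 in MDN and -0.22 and -0.23 in YPD. TFC7 had 1 array per medium, at -0.15 in MDN and -0.69 in YPD, and the fit admitting such genes called it lower in YPD (adjusted p = 0.035) and not in MDN (0.44). On YPD array 1, 5 of the 8 genes of the group were below 0, and on YPD array 2, 1 of the 7 with a value was. Among all features 2973 of 6086 and 2983 of 5994 were below 0 on these arrays. The MDN calls of TFC3 and TFC6 were lost after median centring (adjusted p = 0.0653 and 0.0779).

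MAF1, the repressor that binds polymerase III when nutrients are scarce, was at 0.71 and 0.60 in MDN and at 0.32 and 0.18 in YPD. It rose in MDN (mean 0.66 ± 0.09, adjusted p = 0.00306) and was just outside the threshold in YPD (mean 0.25 ± 0.09, adjusted p = 0.0512). The MDN arrays were both above the YPD arrays, and the medium difference was 0.41 (95% interval 0.10 to 0.72, adjusted p = 0.0613).

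The log2 response of the polymerase genes was in most cases lower in YPD than in MDN, including some genes above 0 in both, such as TFC1 and MAF1. Both MDN arrays were above both YPD arrays for 27 of the 41 tested genes, against 36.4% of all genes, and below both for 5, against 32.6%. The test of the difference, MDN minus YPD, called 12 genes, a share close to the 29.5% of all genes, 10 of them positive (14.9% of all genes) and 2 negative (14.6%). The largest difference was that of RRN11, at 1.70 ± 0.19 (adjusted p = 0.00602), followed by RPC37 at 1.35 ± 0.11 (adjusted p = 0.00272), RPA34 at 1.15 ± 0.24 (adjusted p = 0.0262) and RPC25 at 1.02 ± 0.11 (adjusted p = 0.00602). The others with a smaller response in MDN were RPA14 (0.83), RPA190 (0.78), RPC40 (0.73), RRN3 (0.69), RPA12 (0.61) and RPO26 (0.48, adjusted p = 0.04996).

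A negative difference was called for RPB7, at -0.62 ± 0.12 (adjusted p = 0.0219), which fell in MDN and was near 0 in YPD, and for RRN5, at -1.03 ± 0.25 (adjusted p = 0.0377). Of the 12 calls, 5 were subunits of polymerase I or of polymerases I and III, 1 was shared by all enzymes, 2 were polymerase III subunits, 1 was a polymerase II subunit and 3 were polymerase I factors. No gene of TFIIIC or TFIIIB was called, with differences between -0.36 for TFC3 and 0.62 for TFC8. No polymerase gene and no gene of the whole table kept a called difference with any 1 of the 4 arrays left out. With the arrays brought to equal scale, 6 of the 12 calls were lost (RPA34, RPA14, RPA12, RPC40, RPO26 and RRN5). At that scale RPA43 and RPC10 were called with a negative difference (-0.54 and -0.51, limma adjusted p = 0.0246 and 0.0402). TFC1 and MAF1 were called there with a positive one (0.46 and 0.53, adjusted p = 0.0426 and 0.0295).

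**Figure D3:**
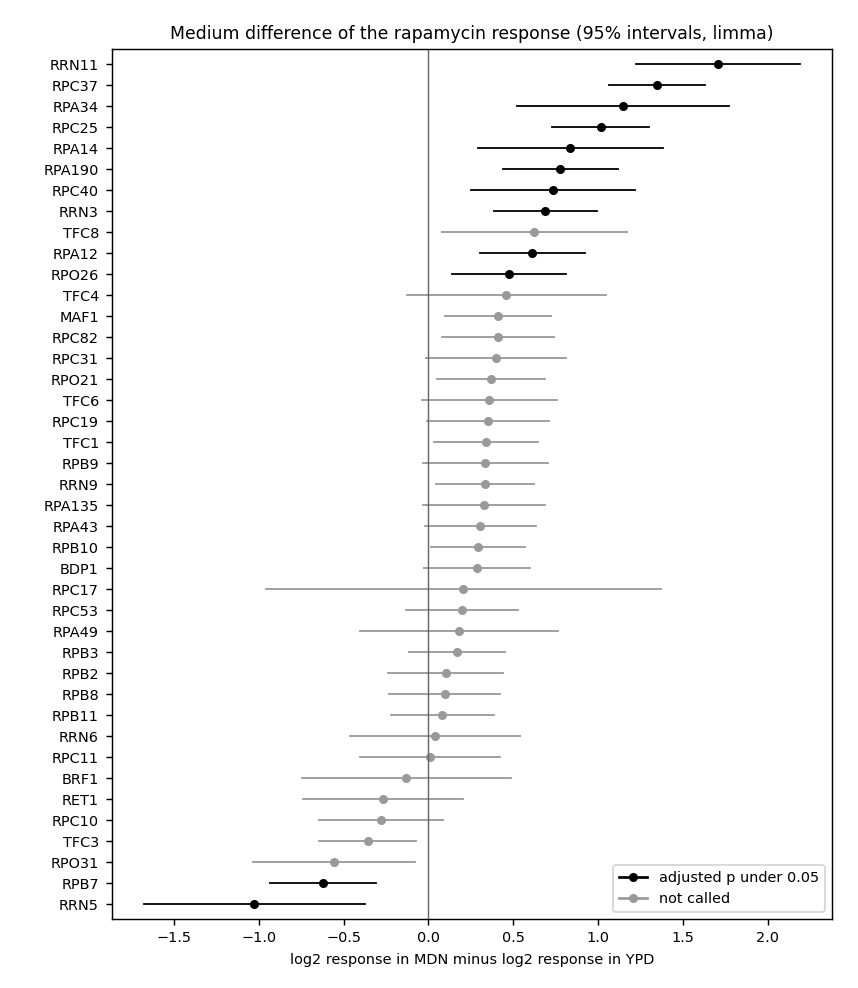
Log2 response to rapamycin in MDN minus that in YPD for the 41 tested genes, with 95% intervals from limma and called genes in black. RRN11 and RPC37 are at the top, at 1.70 and 1.35, and RPB7 and RRN5 at the bottom, at -0.62 and -1.03.

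Without drug, growth in MDN against YPD was set on 1 array, so values have no replicate check. On that array 38 of the 46 genes were below 0, beside 3383 of the 6056 features with a value. At least 1.5-fold lower were 12 genes, against 9.76% of all genes. All 14 subunits of the complete polymerase I were below 0, with 7 of them at least 1.5-fold lower. Of the complete polymerase III 16 of 17 were below 0, with 6 at least 1.5-fold lower, and of the complete polymerase II 11 of 12, with 4. Shared subunits count for each enzyme here. RPA12 was lowest, at -1.22, followed by RPC40 at -1.06, RPA34 at -0.94, RPC10 at -0.89 and RPA49 at -0.81. The own subunits of polymerases I, III and II had medians of -0.58, -0.44 and -0.25, beside -0.06 for all genes.

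Of the polymerase III subunits, RPC37 at -0.79 and RPC34 at -0.76 were lowest and RPO31, at 0.37, was the only one above 0. In the polymerase II group RPB9 at -0.64 and RPO21 at -0.62 were the 2 past 1.5-fold. Of the factors, TFC8 at -0.67 was the only one at least 1.5-fold lower, MAF1 was at 0.42 and TFC3 at 0.33, and RRN5, at 3.08, was the only gene at least 1.5-fold higher (9.51% of all genes were). At 2-fold, 2 genes were lower, where 1.96% of all genes were, and RRN5 was higher, where 3.93% were. The labels do not say whether the YPD RNA here was that of the rapamycin arrays, so no relation between these comparisons was computed.

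In MDN against SCD, also on 1 array, the polymerase genes stayed near 0. Their values lay between -0.60 for RPC34 and 0.31 for RPO31, apart from RRN5 at 2.78. RPC34 was the 1 gene at least 1.5-fold lower, where 4.07% of all genes were, and RRN5 the 1 gene at least 1.5-fold higher, where 6.0% were. At 2-fold, none was lower (0.983% of all genes) and RRN5 was higher (2.39%). After median centring RPC34 no longer passed 1.5-fold. The own subunits of polymerase I had a median of -0.06, those of polymerase III -0.22 and those of polymerase II -0.25, beside -0.09 for all genes, so polymerase I was not the lowest enzyme on this array.

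**Figure D4:**
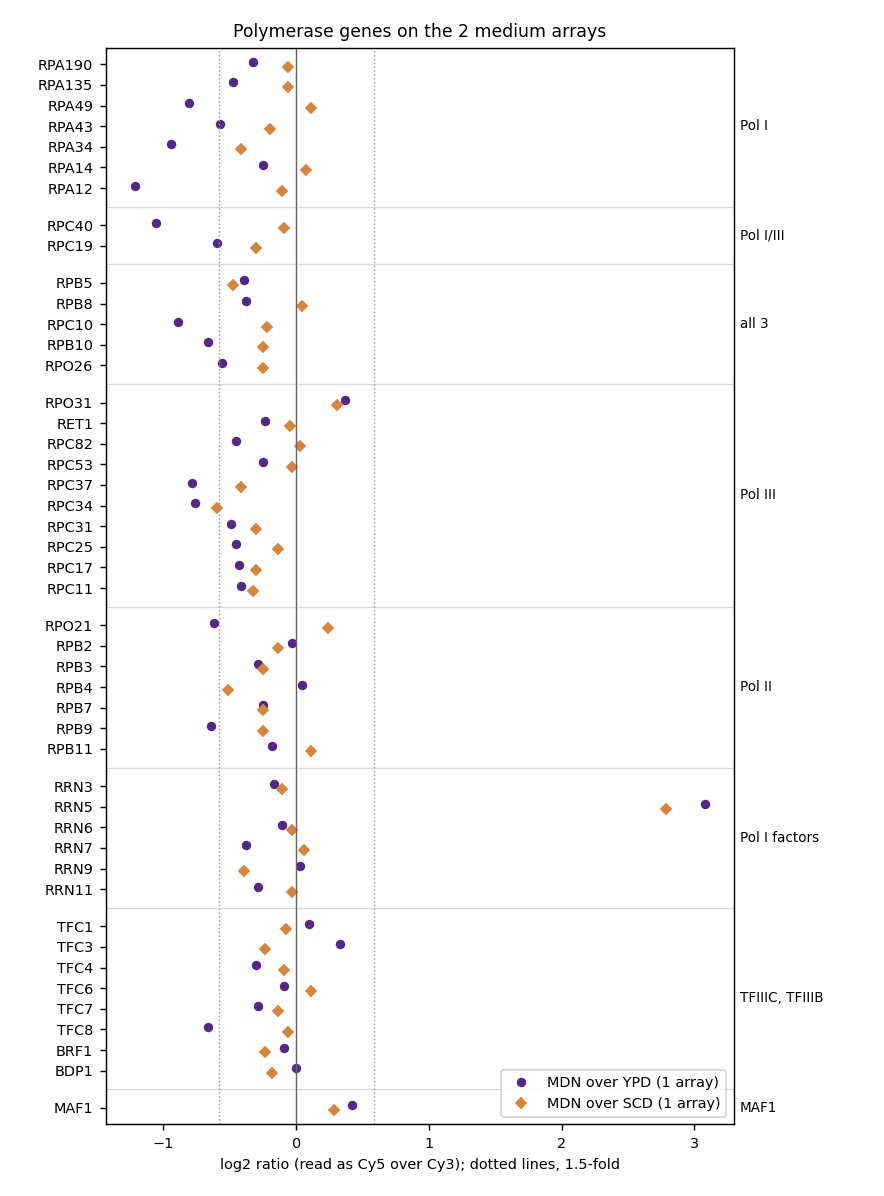
Log2 ratio of MDN over YPD (circles) and MDN over SCD (diamonds) for the 46 genes, 1 array each, with dotted lines at 1.5-fold. RPA12 and RPC40 are farthest left on the MDN over YPD array, at -1.22 and -1.06, and RRN5 is far right on both, at 3.08 and 2.78.

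A list of 46 further genes of the same machinery, chosen by role, gave a mixed picture: 45 had a value on some array, and of 41 tested 12 fell and 11 rose in MDN (medians 0.04 for the list and 0.06 for all genes), and 19 fell and 6 rose in YPD (medians -0.18 and 0.01). Of all genes 23.3% fell and 30.8% rose in MDN, and 32.0% fell and 34.3% rose in YPD. Assembly and import factors had all 8 genes called in MDN, 5 lower and 3 higher, and 7 of 8 lower in YPD. IWR1, which guides polymerase II into the nucleus, was at 1.42 and 0.97 in MDN, where it rose, and at 0.16 and 0.49 in YPD. GPN3, a GTPase of polymerase II import, fell in both media, with means of -1.03 ± 0.12 and -1.22 ± 0.12 (adjusted p = 0.00233 and 0.000827), as did BUD27, a prefoldin-like assembly factor, at -0.83 ± 0.23 and -1.38 ± 0.23, and NPA3, another import GTPase, at -0.52 ± 0.11 and -1.44 ± 0.11. GPN2 and RTP1, also of this class, rose in MDN (0.39 and 0.54) and fell in YPD (-0.40 and -0.45), and their medium differences were called (adjusted p = 0.0209 and 0.0147).

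Of 7 tested further factors and regulators of polymerase III, 2 rose and 1 fell in MDN, and 1 rose and 2 fell in YPD. The others were not called. Among them KNS1, a kinase that acts on Rpc53, rose in both media, at 0.79 ± 0.11 in MDN and 1.12 ± 0.11 in YPD (adjusted p = 0.00351 and 0.000727). CKA1 fell in both, at -0.53 and -0.48. SCH9, a TOR-dependent kinase that acts on Maf1, was at 0.55 and 0.41 in MDN and at -0.81 and -0.69 in YPD. SCH9 rose in MDN and fell in YPD, and its medium difference was 1.23 ± 0.12 (adjusted p = 0.00464), which like the other called differences did not pass with 1 array left out. UAF30, of the polymerase I upstream activation factor with RRN5 and RRN9, fell in MDN and in YPD (-0.78 ± 0.12 and -0.60 ± 0.12).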

How the data were processed

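The deposited table holds 6210 probes on 6 arrays as log2 ratios made by the authors. The log2 scale was found from the values, since 100% of them, raised from the log, are whole multiples of 0.01 (tolerance 0.01 of a step). Per the labels, Cy5 marked the rapamycin or MDN sample and Cy3 the other. How the authors corrected background, normalized or filtered spots was not given in those sources.

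Probes were named from the platform annotation: 5595 had a single symbol and 615 none. Probes of a gene were averaged. The 5488 features measured on each of the 4 rapamycin arrays entered limma (version 3.58.1, R 4.3.3; lmFit, then eBayes), with a mean per medium, 2 residual and 3.0 prior degrees of freedom, and p-values were Benjamini-Hochberg adjusted over all 5488. The fit was tested on simulated data. Errors after ± are standard errors. Arrays without replicate were described by fold, from 1.5-fold. Neighbouring genes come from RefSeq (assembly R64). No sequences were used here.

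The genes, lists and tests were chosen with earlier results of these data known. All 46 genes are named; values on single arrays are written out for those called with a mean of at least 1, for called medium differences, for corresponding subunits, and for MAF1 and RRN3, with others added. Of the further genes, the 5 with the largest called means in each medium and up to 3 others were to be named. Alternatives were median centring, equal array scale, other filters, probes apart, a replicate block, a robust prior, ratios floored at 0.05, a rule of fold size and each array left out; a crossed block was chosen after seeing the data.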

Additional observations from a re-analysis of the deposited data

Results flagged for a closer look

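The response to rapamycin differed between MDN and YPD, by limma's test of the difference with an adjusted p under 0.05, for 12 of the 41 polymerase genes tested, a share close to the 29.5% of all genes. MDN minus YPD was 0.78 for RPA190, 1.15 for RPA34, 0.83 for RPA14, 0.61 for RPA12, 0.73 for RPC40, 0.48 for RPO26, 1.35 for RPC37, 1.02 for RPC25, -0.62 for RPB7, 0.69 for RRN3, -1.03 for RRN5 and 1.70 for RRN11. On both MDN arrays these genes lay on 1 side of both YPD arrays. This separation adds no evidence, because the genes were picked by a call made on the same arrays. Among all genes, which were not picked in this way, 36.4% lay above and 32.6% below. None of the 12 was called with any 1 array left out.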

How the results depend on the processing

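No called response of a polymerase gene changed sign under any alternative. In MDN 27 of 29 calls and in YPD 31 of 32 held under each of the other limma fits that kept all arrays; the exceptions were TFC3, TFC6 and RPO31. Of the 12 called medium differences 6 held in all of these fits. With any 1 array left out, 5, 23 and 0 calls held throughout. Such a fit takes the spread of the medium with 1 array from the medium with 2. Counts then ranged from 5 to 22 lower and 0 to 4 higher in MDN, from 24 to 26 lower and 1 to 3 higher in YPD, and were 0 and 0 for the medium difference, for which no gene of the table was called. Among all features tested, calls in MDN and in YPD also became fewer in each fit without 1 array. A loss of calls was thus not particular to the polymerase genes. A rule outside the limma fits required both arrays to be at least 1.5-fold in 1 direction. By it, 19 of 42 genes with both values were lower and 1 higher in MDN, and 28 of 44 were lower and 3 higher in YPD. Of 6175 genes and unnamed probes, some without both values, 1429 in MDN and 2061 in YPD passed in either direction. These were not split by direction, so the polymerase gene counts in 1 direction have no background share here. At equal array scale the medium difference of RPA43 reversed to -0.54 (adjusted p = 0.0246); the cause was not tested. On the MDN over YPD array 2 genes were at least 2-fold lower; against SCD the 1 lower gene became 0 at 2-fold and 0 after median centring. Replicate numbers in the titles do not pair the arrays by any label, and deviations of same-numbered arrays correlated at -0.10 across genes. With the replicate block, 23 fell and 4 rose in MDN, and 27 fell and 4 rose in YPD. In that fit 7 positive and 2 negative medium differences were called. With the crossed block these counts were 23, 6, 28, 5, 9 and 2. Of the 5488 features tested, the replicate block called 2709 in MDN, 3417 in YPD and 1185 for the medium difference. The crossed block called 2830, 3532 and 1387. In both fits the share of polymerase genes with a called medium difference was close to that of all features.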

Other observations

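General initiation factor genes of polymerase II had medians of 0.12 in MDN and -0.11 in YPD, beside -0.63 and -0.72 for its own subunits. Of 17 tested genes of this class, 5 rose and 2 fell in MDN and 3 rose and 6 fell in YPD, where 30.8% of all genes rose and 23.3% fell in MDN and 34.3% rose and 32.0% fell in YPD. RAD3, a helicase of TFIIH, fell in both media (-0.72 ± 0.09 and -0.73 ± 0.09, adjusted p = 0.00257 and 0.00158), while SSL1, another TFIIH subunit, rose in both (0.66 ± 0.10 and 0.34 ± 0.10, adjusted p = 0.00458 and 0.0295). The subunits of the histone chaperone FACT, SPT16 and POB3, stood at 0.71 ± 0.24 and 0.45 ± 0.08 in MDN and rose in YPD, to 1.28 ± 0.24 and 0.78 ± 0.08. In MDN POB3 was called (adjusted p = 0.0097) and SPT16 was not (0.0534). RPO41, the mitochondrial RNA polymerase, was at 0.03 and 0.06 on the MDN arrays and at -0.04 and 0.07 on the YPD arrays, and was called in neither medium. RAD3, SSL1, POB3 and RPO41 were singled out after their values were seen.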
